A study of Mus musculus with 6 samples.

Results

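Potassium channel genes were examined in a myeloid leukaemia line of the mouse exposed to DB2313, an inhibitor of the transcription factor PU.1. The members are all genes whose symbol starts with Kcn and that have a row of the array table annotated with that symbol alone. This gave 97 rows for 90 genes, of 22180 genes measured in all, and for each of the 7 genes with a second row, the row was chosen by its mean log2 signal over the 6 arrays, the brighter one being kept. Kcnq3 was selected on its measured rise with DB2313 in these arrays, so its change is given as a description. Nothing is concluded from its results in the fits below.

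The line, PU.1low URE-/-, was derived at the leukaemic stage from a mouse without the URE, the upstream enhancer of the PU.1 gene Spi1, so both groups carry that deletion. The first group of 3 arrays came from cells given DB2313 at 330 nM for 24 h, and the other group of 3 from cells given an equal volume of water as vehicle for 24 h. All cells grew in a serum-containing medium with conditioned supernatants of the WEHI and BHK lines, and all data rest on this single line. The labels call the samples biological replicates without saying whether cultures were started separately, so p-values reflect only the spread among these arrays, which may be technical.

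Potassium channels let potassium ions leave or enter the cell along their gradient and so set the membrane potential. The pore is formed by subunits of several families: voltage-gated subunits that open on depolarisation, inward rectifiers that pass current near rest, 2-pore subunits that carry leak currents, and subunits opened by intracellular calcium or sodium. Accessory subunits attach to the pore and change its gating or its transport to the surface. Blood cells are known to use only part of this set, among them a calcium-activated channel encoded by Kcnn4 and, in lymphocytes and macrophages, the voltage-gated channel encoded by Kcna3. KCNQ subunits are best known from neurons, where Kcnq3 assembles with relatives such as Kcnq5 into a slow, non-inactivating channel that is closed by muscarinic receptors and needs a membrane phosphoinositide to open.

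PU.1 binds purine-rich DNA around a GGAA core, and short stretches of the start regions of 2 members are shown because they hold the letters AGAGGAAG, one form of such a site. The windows run from 250 bases before to 50 bases after each RefSeq gene start (GRCm38.p6), and 70 of the 90 genes had at least 1; Kcnq3, Kcnq1 and Kcnk6 were not among the genes searched. Capitals mark the matched letters, 5′ to 3′ on the gene's strand, at chr11:111065947-111066004 (plus strand) for Kcnj2 and chr2:127521416-127521473 (minus strand) for Kcnip3.
Kcnj2: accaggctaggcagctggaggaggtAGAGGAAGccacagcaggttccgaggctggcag
Kcnip3: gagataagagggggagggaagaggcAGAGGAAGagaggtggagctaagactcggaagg
The match begins 192 bases before the start of Kcnj2 and 56 bases before 1 of the 3 RefSeq starts of Kcnip3. On either strand, AGAGGAAG was present in 5 of the 95 windows of potassium channel genes (5.26%) and in 4.55% of all 32851 windows. The other members with it were Kcnip1, Kcnk1 and Kcnk18. The overlapping motif GAGGAAGT was in none of the 95 windows and in 3.2% of all windows, and the shorter GGAAGT, which lies within it, was in 15.8% of the members' windows and 23.8% of all. A match is a description of letters, and no binding was measured here.

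The array signal is a log2 value per probe set, and values of different probe sets are not in one unit, so a brighter row does not mean more RNA. To describe which rows stood above the low end of the scale, the mean over the 6 arrays was set against olfactory and vomeronasal receptor genes, which serve sensory neurons. The benchmark was the 0.95 quantile of 1394 such genes, a log2 signal of 4.83. Of the 90 potassium channel genes 40 (44.4%) lay above it, against 56.2% of all genes, and 27 lay above the median of all genes, 5.17. Only 11 exceeded the 0.99 quantile of the receptor genes, 5.87. The member just above the benchmark was Kcnj4, an inward rectifier, at 4.84, and the member just below was Kcnj8, the inward rectifier of vascular potassium channels closed by ATP, at 4.80.

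**Figure D1:**
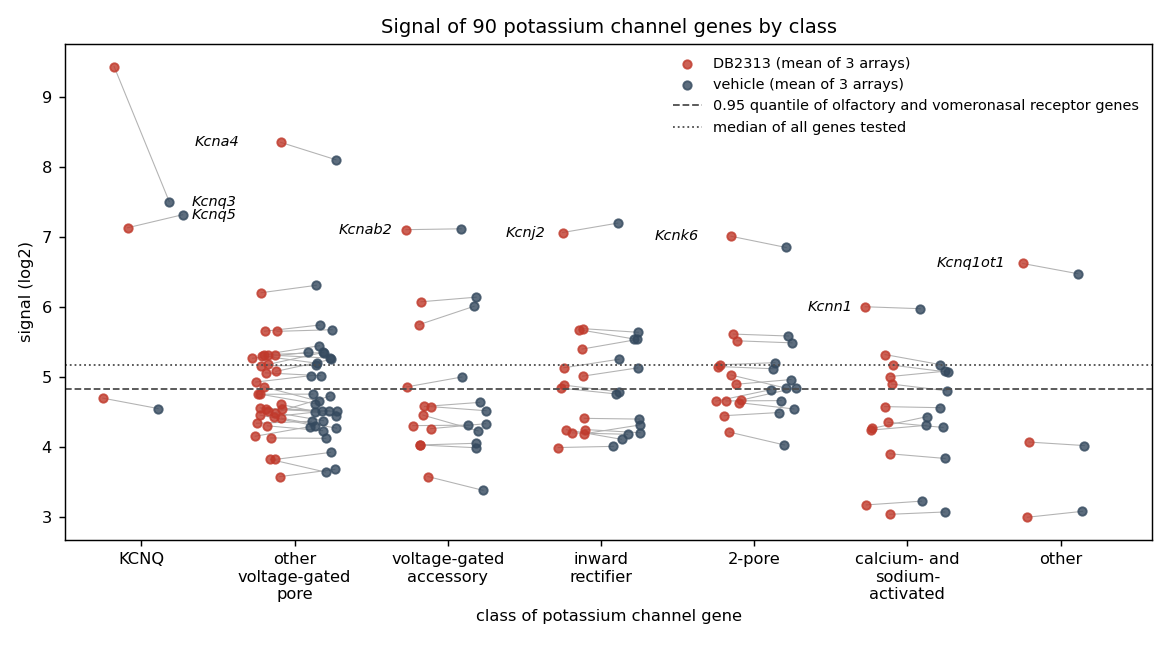
Mean log2 signal of each of the 90 genes by class, DB2313 (red, left) joined to vehicle (dark, right), n = 3 arrays per point; dashed, the benchmark of 4.83, and dotted, the median of all genes, 5.17. Most genes lie near or below the lines in both groups, 1 or a few rows per class stand well above them, and the steep line in the first class is Kcnq3.

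The rows above the 0.99 quantile came from every class and were Kcnq3, Kcna4, Kcnq5, Kcnj2, Kcnab2, Kcnk6, Kcnq1ot1, Kcnc4, Kcne1l, Kcnn1 and Kcnip3. Kcnip3 lay barely above it over all arrays, at 5.88, with a mean of 6.01 with vehicle and 5.75, below the quantile, with DB2313. Markers were read against the label of the line. Of 12 blood and myeloid markers 10 were above the benchmark, with Elane, the neutrophil elastase gene, at 13.05 in both groups and Prtn3, the gene of another granule protease, at 12.51 with DB2313 and 12.46 with vehicle. The rows of Ptprc, the pan-leukocyte marker, at 3.31 with DB2313 and 3.32 with vehicle, and of the progenitor marker Cd34, at 4.63 and 4.59, lay below the benchmark. Among 5 neuronal markers, Rbfox3 had 6.14 with DB2313 and 6.07 with vehicle, Syt1 had 4.93 and 4.92, Syp had 4.81 and 4.94, and Snap25 and Tubb3 lay below the benchmark. Over the neuronal list the summed log2 signal lay between 23.7 and 24.3 on the DB2313 arrays and between 24.1 and 24.7 on the vehicle arrays, and none of the 5 passed the test. Its part in the results below was not tested. None of 4 T cell, 2 measured B cell and 3 muscle markers was above the benchmark. Above it were both measured erythroid markers, 2 of 3 megakaryocyte, 2 of 3 fibroblast and stroma, 1 of 3 epithelial and 1 of 4 mast cell and basophil markers, and none of these 5 lists held a gene that passed. The brightest of them was Mcpt8, a basophil protease, at 7.86 over all arrays, with higher values on all DB2313 arrays (log2 fold change 0.28). Krt8 had 6.05 in both groups, and Col1a1 had 5.61 with DB2313 and 5.80 with vehicle.

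DB2313 and vehicle were compared in a fit over all 22180 genes (limma, 2-sided, Benjamini-Hochberg adjustment over all genes). Of the 90 potassium channel genes 1, Kcnq3, passed an adjusted p of 0.05, which is 1.11% of members against 1.81% of all genes (1.02% higher and 0.789% lower). Since Kcnq3 was chosen for this change, nothing is read from that count. None of the other 89 passed in limma, and 5 of them (5.62%) had an unadjusted p under 0.05, against 12.7% of all genes. The median log2 fold change was 0.01 over the 90 genes and -0.002 over all genes, with 46 members above 0 and 44 below. The 3 DB2313 values lay entirely above or below the 3 vehicle values for 9 of the 90 members, 5 higher and 4 lower (10% of members; 19.3% of all genes, of which 9.75% higher and 9.55% lower). For each of the 89 the 95% confidence interval stayed within a 1.5-fold change either way, with bounds from -0.57 to 0.58 on the log2 scale, where 95.4% of all genes did so. Signals near the low end of the scale can understate a change, and 50 of the 90 rows lay below the benchmark.

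**Figure D2:**
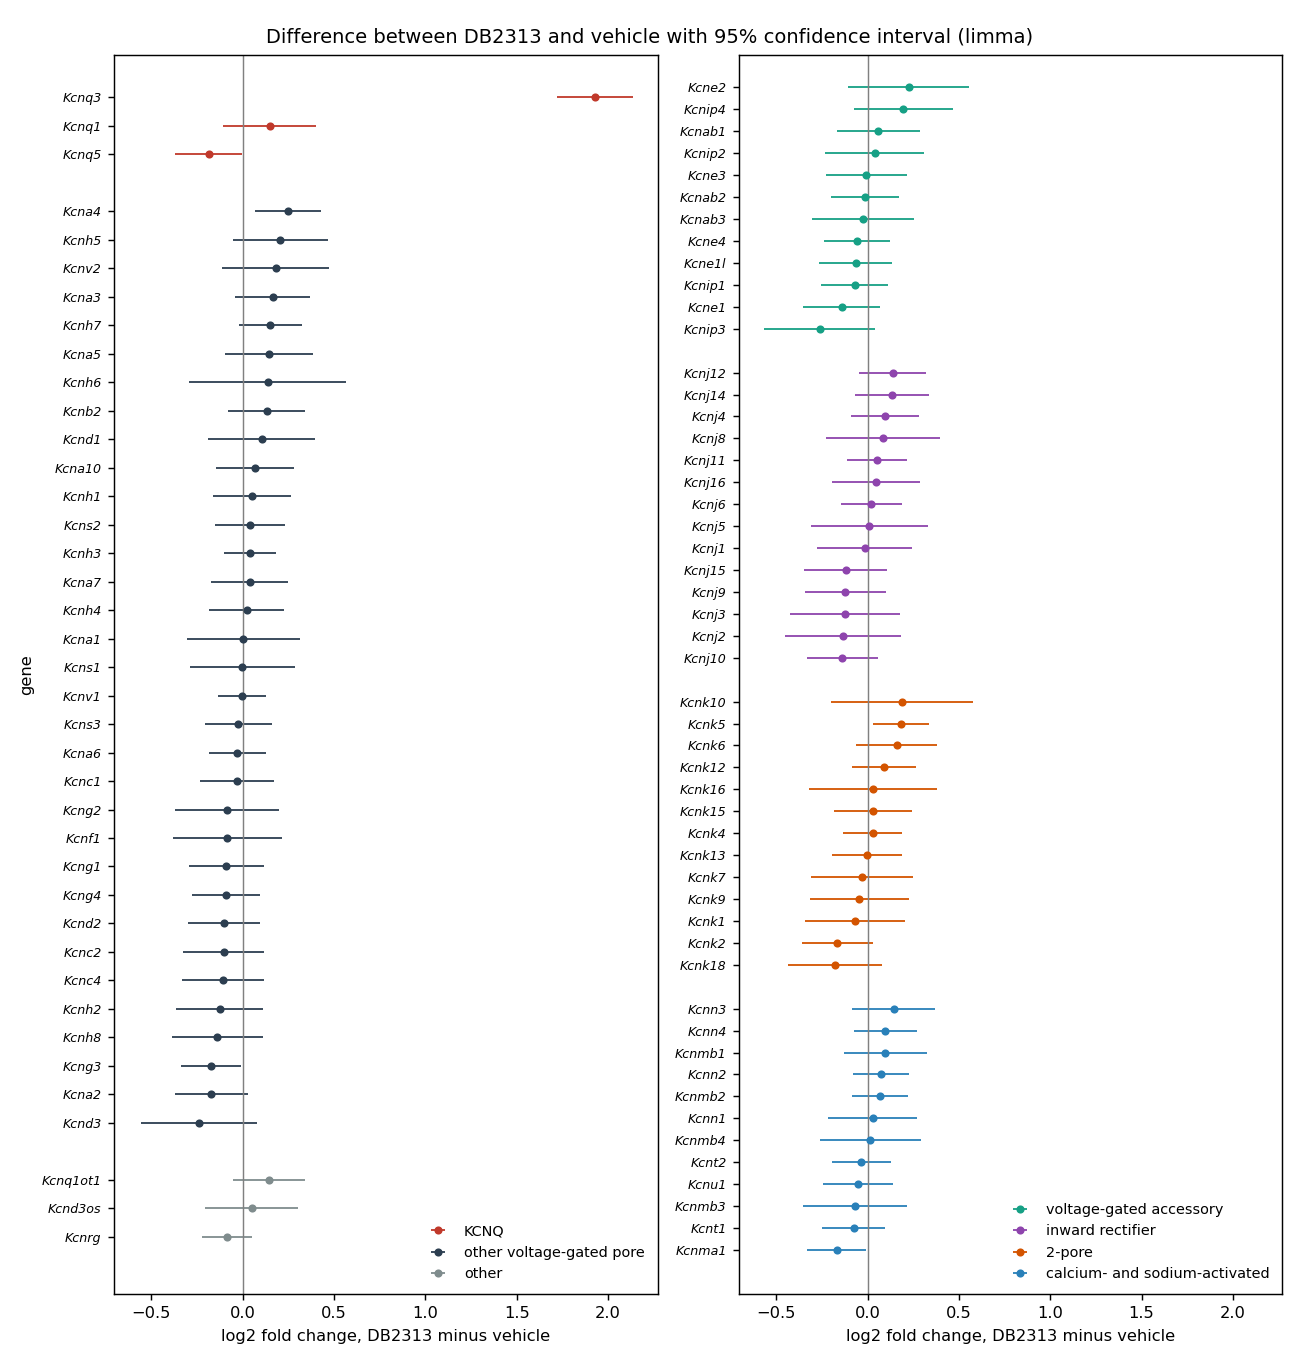
Log2 fold change of DB2313 over vehicle for the 90 genes in their classes, with 95% confidence intervals from limma (n = 3 arrays per group); genes are sorted within each class. Kcnq3 stands at 1.93, and the points of the other 89 lie between -0.26 and 0.25.

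Among the KCNQ genes, Kcnq3 and its partner Kcnq5 both had bright rows in vehicle, and their log2 fold changes had opposite signs. Kcnq3 measured 9.42, 9.51 and 9.36 on the DB2313 arrays, against 7.33, 7.59 and 7.59 on the vehicle arrays. All 3 DB2313 values were high, and the lowest of them exceeded the highest vehicle value by 1.77. The mean was 9.43 ± 0.07 with DB2313 and 7.50 ± 0.15 with vehicle (log2, SD, n = 3 each), a log2 fold change of 1.93 (SE 0.09, 95% interval 1.72 to 2.14). On the linear scale of the signal this is 3.80-fold, with an interval from 3.29 to 4.39. Among all 22180 genes it was the third largest rise, while genes past the threshold had a median absolute change of 0.53 (log2).

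Kcnq5, which encodes a subunit able to assemble with the Kcnq3 product, had slightly lower values with DB2313. Its values were 7.06, 7.24 and 7.08 with DB2313, against 7.24, 7.42 and 7.29 with vehicle. All DB2313 values were lower, but by very little at the nearest points, where the highest DB2313 value and the lowest vehicle value both round to 7.24. The log2 fold change was -0.19 (SE 0.08, interval -0.37 to -0.005), and it did not pass (limma adjusted p = 0.379). The second Kcnq5 row, dimmer at 4.51 over all arrays, had a difference of 0.15, so the 2 rows disagree in sign.

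Kcnq1, the subunit of a slow cardiac and epithelial current, had a row below the benchmark. It measured 4.79, 4.71 and 4.60 with DB2313, against 4.56, 4.34 and 4.75 with vehicle, and the groups overlapped. Its log2 fold change was 0.15 (interval -0.11 to 0.40, limma adjusted p = 0.653). The intervals of Kcnq5 and Kcnq1 end below the interval of Kcnq3, which is a side-by-side description, because the choice of Kcnq3 fixed that order.

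**Figure D3:**
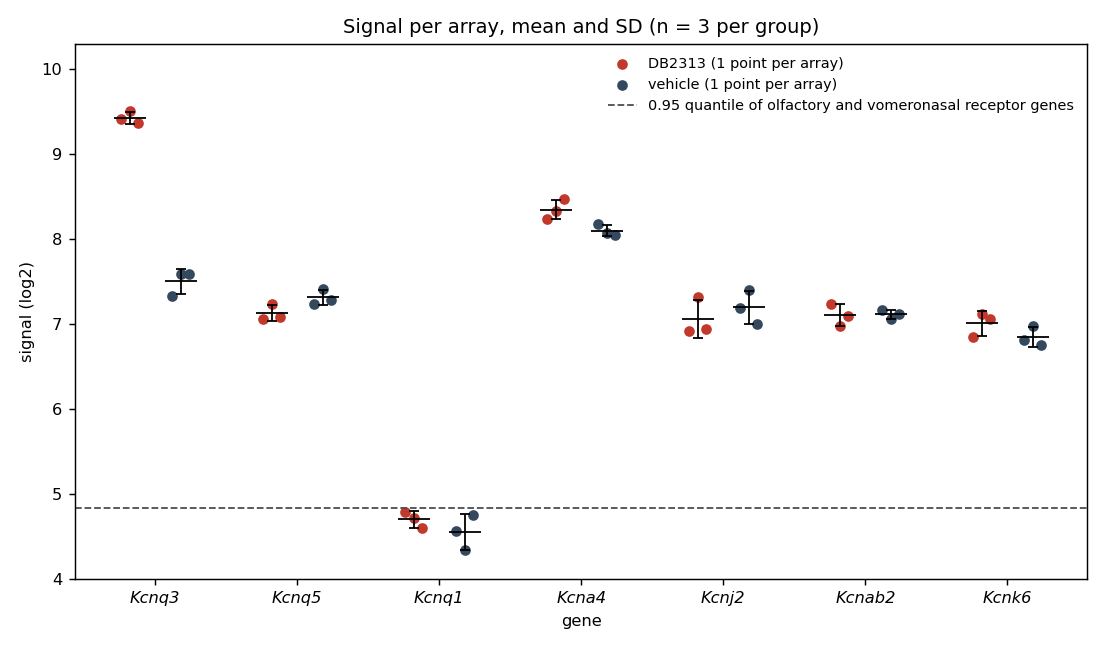
Log2 signal on each array for the 3 KCNQ genes and the brightest row of 4 other classes, DB2313 (red) left of vehicle (dark), with mean and SD (n = 3 each); the dashed line is the benchmark. The Kcnq3 groups are 1.77 apart at their nearest points, while the groups of the other genes overlap or lie close together.

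Accessory subunits of voltage-gated channels numbered 12, of which 4 were above the benchmark and none passed. The 5 Kcne genes encode small single-pass proteins that attach to KCNQ and other pores. Kcne1l was the only Kcne row above the 0.99 quantile, with 5.92, 6.11 and 6.19 on DB2313 arrays, against 6.04, 6.20 and 6.18 on vehicle arrays. Its log2 fold change was -0.07 (interval -0.27 to 0.14). Kcne1, the partner of Kcnq1 in the heart, lay just above the benchmark at 4.83, 4.79 and 4.96 with DB2313, against 4.87, 4.97 and 5.16 with vehicle, with a log2 fold change of -0.14. Kcne2, Kcne3 and Kcne4 lay below it, with log2 fold changes of 0.23, -0.007 and -0.06.

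The remaining accessory genes encode cytosolic partners. Kcnab2, a beta subunit with an oxidoreductase fold, measured 7.24, 6.98 and 7.10 with DB2313, against 7.16, 7.06 and 7.12 with vehicle. Its groups lay on top of each other, with a log2 fold change of -0.01 (interval -0.20 to 0.17). Kcnip3, a calcium-binding protein that modulates channels and also binds DNA, had the lowest log2 fold change of the 90, -0.26 (SE 0.13, limma adjusted p = 0.470). Its values were 5.86, 5.77 and 5.61 with DB2313, against 5.78, 5.96 and 6.29 with vehicle. The groups overlapped, and the vehicle mean was raised by replicate 3.

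Outside the KCNQ family, 33 voltage-gated pore genes were measured, 14 above the benchmark and 10 above the median of all genes, and none passed. Kcna4 encodes a fast-inactivating subunit. It had the brightest row of the class, with 8.24, 8.33 and 8.47 on DB2313 arrays, against 8.17, 8.08 and 8.05 on vehicle arrays. The groups did not overlap, and the log2 fold change of 0.25 (SE 0.08, interval 0.07 to 0.43) was the highest of the 89 genes, with the smallest p among them, but did not pass (limma adjusted p = 0.227). The second Kcna4 row averaged 3.43 over all arrays, near the low end, and had a difference of -0.20. The rows disagree in level and in sign.

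Kcnc4, another fast-inactivating subunit, and Kcng1, a silent subunit that works only within mixed channels, followed in brightness, at 6.20 ± 0.09 with DB2313 and 6.31 ± 0.17 with vehicle for Kcnc4. Their log2 fold changes were -0.11 and -0.09. The silent subunit gene Kcng3 measured 5.11, 5.26 and 5.17 with DB2313, against 5.35, 5.42 and 5.28 with vehicle. All DB2313 values were lower, by a log2 fold change of -0.17 (SE 0.07, limma adjusted p = 0.375). Kcnh7, of the ether-a-go-go-related family, had groups that lay apart the other way with 0.15, as did Kcnh5 with 0.21, a gene named here after its values were seen. Kcnh2, the cardiac repolarisation channel of that family, had -0.13 with overlapping groups. Kcna3, the lymphocyte channel, lay below the benchmark at 4.61 ± 0.16 with DB2313 and 4.44 ± 0.03 with vehicle, a log2 fold change of 0.16 (limma adjusted p = 0.503). Kcna2, an axonal channel, had -0.17, and Kcnd3, a subunit of transient currents in heart and brain, -0.24, the second largest absolute change of the class.

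Of 14 inward rectifier genes, 7 were above the benchmark, and none passed. Kcnj2, which encodes the classical strong inward rectifier that holds the resting potential in muscle and macrophages, was the brightest row and a member whose start region is printed above. It measured 6.92, 7.32 and 6.95 with DB2313, against 7.18, 7.40 and 7.01 with vehicle. In both groups replicate 2 was highest, and the groups overlapped, with a log2 fold change of -0.13 (interval -0.45 to 0.18). The next brightest were Kcnj11, the pore of channels closed by ATP in pancreatic beta cells, with 0.05, and Kcnj14 with 0.13. Kcnj10, known from glia and kidney, had -0.14 and Kcnj12, a strong rectifier of muscle, 0.14. Kcnj4 and Kcnj8, on either side of the benchmark, had 0.10 and 0.08. The log2 fold changes of the class spanned -0.14 to 0.14.

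The 2-pore family had 13 members, 7 above the benchmark and none past the threshold. Kcnk6 stood out in brightness. It encodes a 2-pore channel through which macrophages lose potassium before inflammasome activation. Its values were 6.85, 7.12 and 7.06 with DB2313, against 6.81, 6.98 and 6.75 with vehicle. The groups overlapped, with a log2 fold change of 0.16 (interval -0.06 to 0.38, limma adjusted p = 0.555). Kcnk4, a channel gated by membrane stretch, and Kcnk15 had 0.03 each. Kcnk5, an alkali-activated channel, measured 4.15, 4.25 and 4.25 with DB2313, against 4.03, 3.97 and 4.09 with vehicle. All DB2313 values were higher, in a row below the benchmark, with 0.18 (SE 0.07, limma adjusted p = 0.297). Kcnk13, the resting channel of microglia, and its relative Kcnk12 were below the benchmark with -0.005 and 0.09. Kcnk10 and Kcnk2, stretch-activated relatives of Kcnk4, had 0.19 and -0.16.

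Calcium- and sodium-activated channel genes numbered 12, of which 5 were above the benchmark and none passed. Kcnn1, a small-conductance calcium-activated channel, was the brightest at 6.06, 6.04 and 5.92 with DB2313, against 5.87, 5.85 and 6.20 with vehicle, a log2 fold change of 0.03. Kcnn4, the intermediate-conductance channel of blood cells, measured 5.18, 5.12 and 5.20 with DB2313, against 5.14, 5.14 and 4.94 with vehicle. These values overlapped and lay near the median of all genes, with a log2 fold change of 0.10 (interval -0.08 to 0.27). Kcnn3, a further small-conductance channel, had 0.14. Kcnma1, the pore of the large-conductance channel, measured 4.23, 4.22 and 4.35 with DB2313, against 4.38, 4.51 and 4.41 with vehicle. The groups lay apart below the benchmark, with -0.17 (SE 0.07, limma adjusted p = 0.365), and its other row had -0.07.

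Of the members, 3 encode no channel subunit. Kcnq1ot1, the long noncoding RNA that silences neighbouring imprinted genes and is transcribed antisense to Kcnq1, had one of the brighter rows, at 6.78, 6.50 and 6.58 with DB2313, against 6.49, 6.52 and 6.42 with vehicle. Its log2 fold change was 0.15 (interval -0.05 to 0.34). Kcnd3os, an opposite-strand transcript of Kcnd3, had 0.05. Kcnrg, a soluble inhibitor of channel assembly, was the dimmest member, with a mean of 3.04 and a log2 fold change of -0.08, although its groups did not overlap.

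The array of vehicle replicate 3 stood apart among the vehicle arrays in the members. It held the highest of the 3 vehicle values for 51 of the 90 members (56.7%), against 35.8% of all genes. Vehicle replicate 2 did so for 29 members (32.2%), against 35.0% of all genes, and vehicle replicate 1 for 10 members (11.1%), against 29.2%. Over all genes this share was thus close for replicates 2 and 3 and lower for replicate 1. The median signal of the 90 genes was 4.71, 4.74 and 4.67 on the DB2313 arrays, and 4.66, 4.66 and 4.78 on the vehicle arrays. Over all genes the median was 5.19, 5.16 and 5.16 on the DB2313 arrays, and 5.15, 5.16 and 5.21 on the vehicle arrays. Vehicle replicate 3 was thus the highest there too, and whether its shift is particular to the members was not tested. Without vehicle replicate 3 the median log2 fold change of the members was 0.05, Kcnq3 had 1.97, and the smallest limma adjusted p of another member was 0.119. Of the members other than Kcnq3, 8 then had an unadjusted p under 0.05, in place of 5. The log2 fold change without that array was -0.12 for Kcnip3, -0.11 for Kcnd3, 0.36 for Kcne2 and 0.37 for Kcnk10. The quartiles of all rows were close on every array, with medians between 4.77 and 4.82. The upper quartile was lowest on vehicle replicate 3, at 6.68, against 6.71 to 6.73 on the other arrays. Pearson's r across genes was 0.996 for pairs of arrays within a group and 0.994 to 0.995 between groups.

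A list of pumps, cotransporters and other channels of potassium balance and membrane potential had 41 measured genes of 47, of which 1 fell, none rose and 40 did not pass (2.44%, against 1.81% of all genes). The gene that fell was Hvcn1, the voltage-gated proton channel of phagocytes, at 8.56 ± 0.03 with DB2313 and 9.41 ± 0.03 with vehicle (log2, SD, n = 3 each). Its log2 fold change was -0.85 (SE 0.06, limma adjusted p = 0.000840), and it passed whichever array was left out. The median log2 fold change of the list was -0.03, and the groups lay apart for 15 genes, 12 lower and 3 higher with DB2313 (36.6% of the list, against 19.3% of all genes, of which 9.55% lower and 9.75% higher). An unadjusted p under 0.05 was found for 29.3% of the list, against 12.7% of all genes. None of the measured genes of potassium pumps passed, and Atp1b3, a beta subunit of the sodium-potassium pump with a bright row, had -0.03. Of the genes of store-operated calcium entry, which supplies calcium to Kcnn4, the endoplasmic reticulum sensors Stim1 and Stim2 had 0.14 and -0.27, and none passed (limma adjusted p = 0.0779 for Stim2). The pore genes Orai1, Orai2 and Orai3 had 0.08, 0.06 and 0.04.

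Regulators and partners of KCNQ channels, the 5 Kcne genes included, had 33 measured genes of 37, of which 2 fell, none rose and 31 did not pass (6.06%, against 1.81% of all genes). Bace1, a protease that also associates with KCNQ channels, was at 7.78 ± 0.06 with DB2313 and 8.32 ± 0.10 with vehicle, a log2 fold change of -0.53 (SE 0.07, limma adjusted p = 0.0157). It had -0.17 as the mean of its rows (limma adjusted p = 0.310). Prkcd, a protein kinase C isoform, had -0.41 (SE 0.07, limma adjusted p = 0.0386). The isoform genes Prkcb and Prkca had 0.29 and -0.002, and neither passed (limma adjusted p = 0.122 for Prkcb, higher on all DB2313 arrays). Left out singly, 4 of the 6 arrays removed the call of Bace1 (DB2313 replicates 1 and 3, vehicle replicates 1 and 2, adjusted p up to 0.0771), and each of the 6 removed that of Prkcd (0.0990 to 0.133). The median log2 fold change of the list was -0.005, and the groups lay apart for 9 genes, 5 lower and 4 higher with DB2313. This is 27.3% of the list, against 19.3% of all genes, of which 9.55% lower and 9.75% higher. An unadjusted p under 0.05 in limma was found for 21.2% of the list, against 12.7% of all genes. Rest, the repressor of neuronal genes, had 0.03 and Nedd4l, a ubiquitin ligase of KCNQ channels, 0.05, and neither passed.

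Spi1, the gene of the inhibited factor, was at 6.50 ± 0.01 with DB2313 and 6.87 ± 0.08 with vehicle, a log2 fold change of -0.37 (SE 0.06, limma adjusted p = 0.0342), a call that held in none of the 6 fits on 5 arrays (adjusted p 0.0648 to 0.134).

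None of the 6 genes examined beside Kcnq3 on chromosome 15 rose past the threshold, and 1 fell (over all genes, 0.789% fell and 1.81% passed in either direction). The 3 nearest measured protein-coding genes on one side were Hhla1, Oc90 and Efr3a, in order of distance, and on the other side Lrrc6, Tmem71 and Phf20l1. Hhla1 and Lrrc6, the nearest on each side, had log2 fold changes of -0.03 (interval -0.21 to 0.15) and 0.003 (interval -0.25 to 0.26), in rows below the benchmark. Efr3a, which anchors a phosphoinositide kinase at the cell membrane, had 0.15 and did not pass (limma adjusted p = 0.365). Tmem71 fell, to 5.16, 5.19 and 5.18 with DB2313, against 5.57, 5.71 and 5.82 with vehicle, a log2 fold change of -0.52 (SE 0.08, limma adjusted p = 0.0185). That call was lost when any array but vehicle replicate 1 was left out, with adjusted p up to 0.0827, and the log2 fold change was -0.30 after 32 was added to the linear signal. Phf20l1, a chromatin reader, had -0.20 (limma adjusted p = 0.332), and Oc90, an inner ear matrix protein, 0.04.

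**Figure D4:**
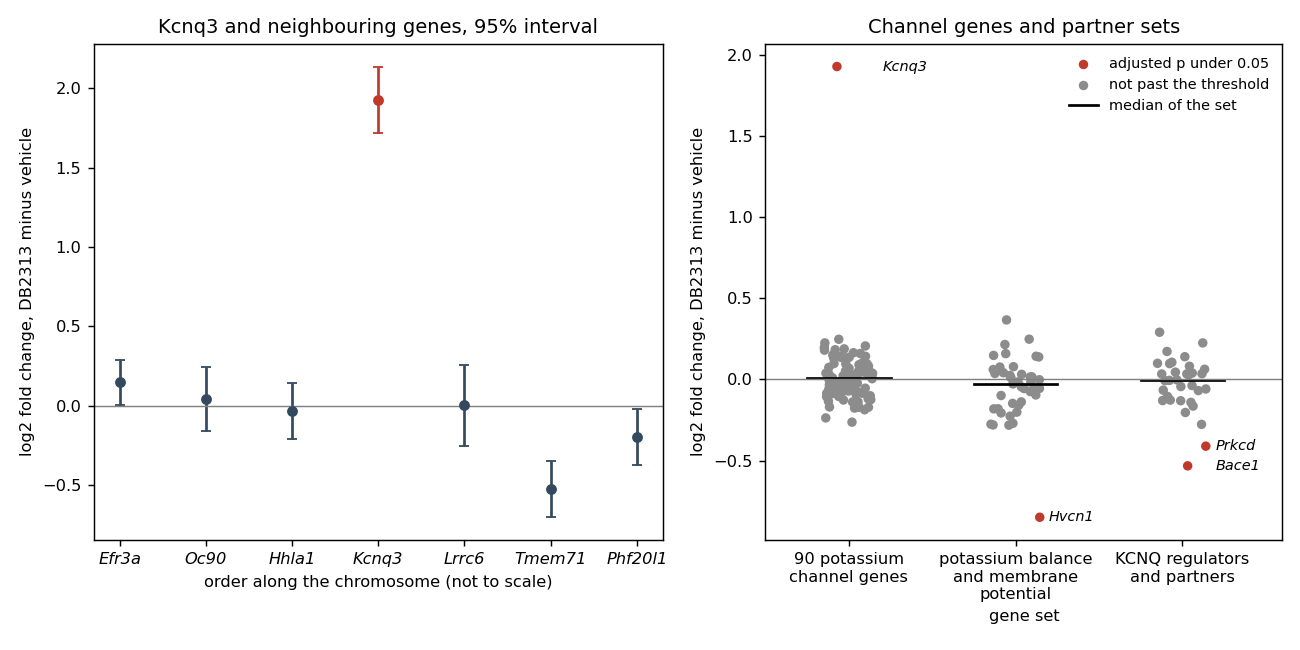
Left, log2 fold change of DB2313 over vehicle with 95% interval for Kcnq3 and the 3 nearest measured genes on each side, in order along chromosome 15. Right, the same quantity for the 90 channel genes, the 41 potassium balance genes and the 33 KCNQ regulators, with genes past the threshold in red and medians as bars; Kcnq3 (1.93) lies above all other points, and Hvcn1 (-0.85) lies lowest.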

How the data were processed

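Total RNA of 6 samples was labelled with biotin and hybridised to Affymetrix arrays, per the labels' protocols. Affymetrix Expression Console was used, per the submitters' processing notes. Its version, background correction, summarisation and genome build are not stated. The authors deposited log2 values, as judged from their range, for 41345 rows; near equal quartiles point to prior normalization.

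Symbols came from the platform annotation. Rows with 1 symbol (23521; 1814 had several, 16010 had none listed) were reduced to the brightest per gene, giving 22180 genes; 3 Kcn symbols occurred only in rows with several. DB2313 was compared with vehicle by lmFit and eBayes in limma 3.58.1 (R 4.3.3) at an adjusted p of 0.05. In simulated arrays of 22180 genes, 200 of them were given a change. The test recovered 51.5% of log2 changes of 0.5, 96.0% of 1 and 99.4% of 2, and 4.03% of calls were false. The simulated noise was independent and normal, with variances drawn from the distribution that limma had fitted to these arrays. These shares hold for that setting and are not error rates of the measured arrays. The number of arrays limits the precision.

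Members, lists and tests were chosen with earlier results of these data known. The rule for named genes took all KCNQ and Kcne genes, 11 genes known from blood cells, members past the threshold, the 3 brightest and 2 most changed of each class, the 10 with the smallest p and the members beside the benchmark, 41 genes in all. Alternatives were filters on dim genes, quantile normalization, median centring, an offset of 32, a trended and robust prior, a replicate block, the mean of rows, every row tested, each array left out, and other benchmarks.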

Additional observations from a re-analysis of the deposited data

How the results depend on the processing

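In the 15 alternative fits the log2 fold change of Kcnq3 lay between 1.76 (offset of 32 on the linear scale) and 1.97, and no other potassium channel gene passed in any of them. The smallest adjusted p of another member was 0.0566, with the trended and robust prior. The other 40 named members gave 19 sign changes in 578 comparisons, counted whatever their p; none was in a member whose 95% interval excluded 0. The median log2 fold change of the members, 0.01 on all arrays, lay between -0.02 and 0.05. The count of all genes past the threshold, 401, depended on the setting: 799 with genes below the median left out, 830 with the offset of 32, 920 with the trended and robust prior, 142 with every row tested, and 136 to 187 with 1 array left out. With the replicate block it was 190, and the log2 fold change of Kcnq3 was 1.93 as before. Same-numbered arrays of the 2 groups deviated together only weakly (r from 0.008 to 0.078 across genes), and not every array correlated best with its own number, so the numbers were not taken to pair the samples. Above the 0.99 quantile of the receptor genes lay 11 members in place of 40. Prkcd, Tmem71 and Spi1 were also lost with the replicate block and with every row tested, Bace1 with every row tested and as the mean of rows, and Prkcd with median centring; these 4 genes were chosen after seeing the data. Scanner files were not used here, so signal over background could not be examined.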

Other observations

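Potassium channel symbols also occurred in rows annotated with several genes, which entered no comparison. The brightest of these, shared by Kcnk3, an acid-sensitive 2-pore channel, and Gm9899, measured 5.78, 5.59 and 5.62 with DB2313, against 5.75, 5.79 and 5.61 with vehicle. The row shared by Kcnj13 and Gigyf2 had a mean of 3.31. In the fit on every row none of these 4 rows passed, with unadjusted p from 0.421 to 0.751. Of the second rows of members, those of Kcnma1, Kcna6 and Kcnab3 had differences of the same sign as the row kept, with -0.07, -0.06 and -0.05, and Kcnmb4, a neuronal beta subunit of the large-conductance channel, had 0.12 in its second row and 0.02 in the row kept. Kcnj3, a subunit of channels opened by G proteins, had 0.07 in its second row and -0.12 in the row kept.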
